A study of Rattus with 12 samples.

Results

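The genes described here encode the beta subunits of the Na,K-ATPase (Atp1b1, Atp1b2 and Atp1b3) and 4 FXYD proteins, small membrane proteins that bind the pump (Fxyd1, Fxyd2, Fxyd4 and Fxyd5). They were chosen by name, and each matched 1 row of the gene table that held no other gene name, 7 rows of 42915 in all. All 7 were among the 13253 rows that the authors tested. RNA came from medullary thick ascending limbs (mTAL) of 12 male rats aged 7 weeks, kept on a diet with 0.4% NaCl and given no other treatment. Of these, 6 were Dahl salt-sensitive rats (SS/JrHsdMcwi, here SS) and 6 were SS-Chr 1BN/Mcwi rats (here SS.BN1), a consomic line that has chromosome 1 of the Brown Norway rat on the SS background. The tubules were picked by hand under a microscope, and a library was made from each rat. The whole of chromosome 1 differs between these strains, so a difference between them cannot be assigned to 1 gene of it. Expression was deposited as 1 FPKM value per strain (fragments scaled by transcript length and library size), so the values below carry no error between rats, and p and q are the authors' own.

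The Na,K-ATPase of the basolateral membrane moves sodium out of the tubule cell and potassium into it, and the gradient it makes drives the uptake of salt from the tubule fluid by the Na-K-2Cl cotransporter. It consists of a catalytic alpha subunit and a glycosylated beta subunit that brings the alpha subunit to the cell surface. An FXYD protein, named for a short shared motif, joins the complex and modifies its affinity for ions. In the rat kidney Fxyd2, the gamma subunit, is known from the thick ascending limb, and Fxyd4, also called Chif, from the collecting duct.

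None of the 7 genes was called different between SS and SS.BN1, and the genes differed from each other far more than the strains did. By the authors' deposited table, a q under 0.05 was found for 0 of 7, beside 3.42% of all tested rows (453 of 13253), and 0 of 7 had an unadjusted p under 0.05, beside 7.55% of all tested rows. Their log2 ratios of SS over SS.BN1 ran from -0.25 for Fxyd5 to 0.31 for Atp1b2, and the median was -0.04, beside 0.00125 over all tested rows. The median absolute log2 ratio was 0.08 over the 7 genes and 0.12 over all tested rows. Among tested rows it varied with level, at 0.13 for 2 to 20 FPKM and 0.08 for 50 to 1000 FPKM. For rows of at least 1000 FPKM it was 0.09, so the value of the 7 genes was not lower than that of other abundant rows. By contrast, the most abundant gene stood 2642-fold above the least abundant in SS and 3376-fold above it in SS.BN1. The order of the 7 levels, Fxyd2, Atp1b1, Atp1b3, Fxyd4, Fxyd5, Fxyd1 and Atp1b2, was the same in both strains. With 1 value per strain, no spread can be set against the gap between neighbours in that order, and the closest neighbours, Fxyd1 and Atp1b2, were nearly tied in SS (1.01-fold apart) and 1.30-fold apart in SS.BN1.

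**Figure D1:**
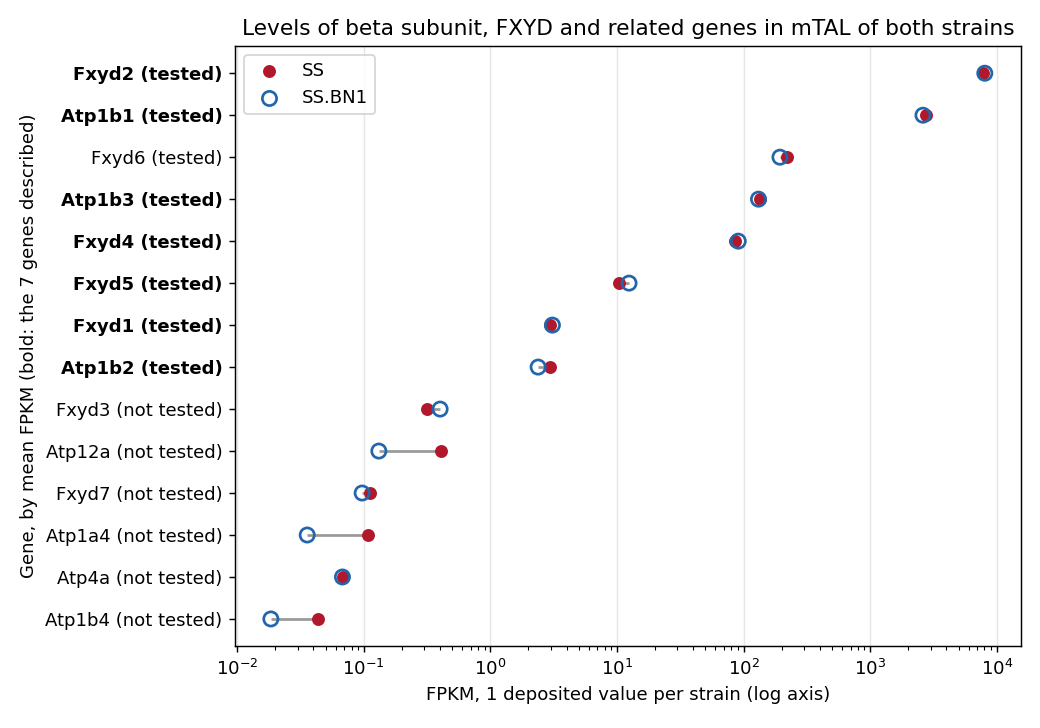
Levels of beta subunit, FXYD and related genes in each strain, 1 deposited FPKM value per strain on a log axis, with SS as filled red points and SS.BN1 as open blue circles; Atp4b, listed at 0, is left out. The points of both strains nearly coincide for Fxyd2 (7812 and 8046 FPKM), Atp1b1 (2757 and 2613 FPKM) and Atp1b3 (135 and 131 FPKM), and the genes under 1 FPKM were not tested by the authors.

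Atp1b1, the beta subunit of most epithelia, carried nearly all beta subunit RNA. Its level was 2757 FPKM in SS and 2613 FPKM in SS.BN1, a log2 ratio of 0.08, with p = 0.813 and q = 1.00 in the authors' deposited table. The SS level was thus 5.52% above that of SS.BN1. Atp1b1 ranked 14 among the tested rows in SS and 13 in SS.BN1, and 9 of the 13 rows above it in SS were mitochondrial. Its locus as deposited (chromosome 13, 82607673 to 82758004) is shared with Nme7, which lies in an overlapping row of 7.57 FPKM in SS and 8.15 FPKM in SS.BN1.

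Atp1b3, a widely expressed beta subunit, stood far below Atp1b1. It had 135 FPKM in SS and 131 FPKM in SS.BN1 (log2 ratio 0.04), with p = 0.851 in the authors' deposited table. The ratio of Atp1b1 to Atp1b3 FPKM was 20.5 in SS and 19.9 in SS.BN1. A pseudogene annotated in RefSeq, Atp1b3-ps2, is a possible source of shared reads, so the level of Atp1b3 is uncertain to that extent.

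Atp1b2, known from glia as an adhesion molecule, was the least abundant of the 7 genes. It had 2.96 FPKM in SS and 2.38 FPKM in SS.BN1, the largest log2 ratio among the 7 (0.31, or 1.24-fold), and p = 0.355 in the authors' deposited table, which is also the smallest p of the 7. Of all tested rows, 78.3% had an absolute log2 ratio no larger than this one.

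As shares of the FPKM summed over the 4 beta subunit genes, Atp1b1 made up 95.2% in SS and 95.1% in SS.BN1. The share of Atp1b3 was 4.65% in SS and 4.78% in SS.BN1. Atp1b2 took 0.102% in SS and 0.0868% in SS.BN1, and Atp1b4, which the authors did not test, took less still. The beta subunits summed to 2894 FPKM in SS and 2746 FPKM in SS.BN1. These shares moved by 0.130 percentage points or less between strains and carry no test.

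Fxyd2, the gamma subunit, whose mutation causes loss of magnesium in people, was the most abundant of the 7 genes. Its level was 7812 FPKM in SS and 8046 FPKM in SS.BN1 (log2 ratio -0.04), with p = 0.949 in the authors' deposited table. It ranked 8 among the tested rows in both strains, and of the 7 rows above it in SS, 6 were mitochondrial and the other was Umod (uromodulin). Fxyd2 lies on chromosome 8 (49706900 to 49723520 as deposited).

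Fxyd4, which raises the affinity of the pump for sodium in the collecting duct, was the second of the 4 FXYD members by the level of its row. It stood at 85.0 FPKM in SS and 90.8 FPKM in SS.BN1 (log2 ratio -0.10), with p = 0.691 in the authors' deposited table. Its row lies on chromosome 4 (149984206 to 149988295 as deposited). Fxyd2 stood 91.9-fold above Fxyd4 in SS and 88.6-fold above it in SS.BN1.

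Fxyd5, or dysadherin, an FXYD protein of epithelia, endothelium and leukocytes that also affects cell adhesion, stood 8.13-fold below Fxyd4 in SS and 7.29-fold below it in SS.BN1. It had 10.5 FPKM in SS and 12.5 FPKM in SS.BN1, so that SS.BN1 was 1.19-fold higher (log2 ratio -0.25), with p = 0.460 in the authors' deposited table. Fxyd1, or phospholemman, the FXYD protein of heart and skeletal muscle, had 2.98 FPKM in SS and 3.09 FPKM in SS.BN1 (log2 ratio -0.05, p = 0.927 in the authors' deposited table). Both genes are thus expressed at a small fraction of the level of Fxyd2.

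Over the 7 FXYD rows of the table, Fxyd2 made up 96.1% of summed FXYD FPKM in SS and 96.4% in SS.BN1. Fxyd4 took 1.05% in SS and 1.09% in SS.BN1. The share of Fxyd5 was 0.129% in SS and 0.149% in SS.BN1, and that of Fxyd1 was 0.0367% in SS and 0.0370% in SS.BN1. Summed FXYD FPKM was 8131 in SS and 8347 in SS.BN1. Summed FXYD FPKM stood 2.81-fold above summed beta subunit FPKM in SS and 3.04-fold above it in SS.BN1, and Fxyd2 alone stood 2.83-fold above Atp1b1 in SS and 3.08-fold above it in SS.BN1. All 4 FXYD members had the lower value in SS and all 3 beta subunits the higher one, but no member passed the test. Fxyd6, an FXYD gene outside the members, had the higher value in SS (log2 ratio 0.19). Of all tested rows, 75% of those of at least 1000 FPKM had the higher value in SS. That share was 69.4% at 50 to 1000 FPKM and 45.4% at 2 to 20 FPKM. Under quantile normalization Atp1b1 and Atp1b3 turned to -0.02 and -0.13 on the log2 scale. Fxyd2 stood at 0 there, as any gene of equal rank in both strains does under this scaling.

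Further genes of the family were set beside these members. Fxyd6, known as phosphohippolin, had 221 FPKM in SS and 194 FPKM in SS.BN1 (log2 ratio 0.19, p = 0.387 in the authors' deposited table). By this row it stood above Fxyd4 as the second FXYD gene by level, with 2.71% of summed FXYD FPKM in SS and 2.32% in SS.BN1. Annotated transcripts held only 1.27% of the row in SS and 1.28% in SS.BN1, and the rest came from assembled isoforms. The row ends at 49703419 on chromosome 8, close to Fxyd2, and the origin of the assembled isoforms was not tested. Of 8 further genes analysed, 7 stood under 1 FPKM in both strains and were not tested, namely Atp1a4, Atp1b4, Fxyd3, Fxyd7 and the gastric and colonic H,K-ATPase genes Atp4a, Atp4b and Atp12a.

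The folds that the authors called show what size of difference passed their test. Over all rows the smallest called fold was 1.58, and among the 8359 tested rows of 2 to 20 FPKM, the range of Atp1b2, Fxyd1 and Fxyd5, it was 1.61, with 246 called. At 50 to 1000 FPKM, where Atp1b3 and Fxyd4 lie, 75 of 1299 rows were called and the smallest called fold was 1.60. Only 28 tested rows reached 1000 FPKM, of which 12 were mitochondrial, and 1 was called, at 2.44-fold. The values of Atp1b1 and Fxyd2 do not show that the strains are alike, and the largest fold among the 7 genes (1.24) is under every called fold.

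**Figure D2:**
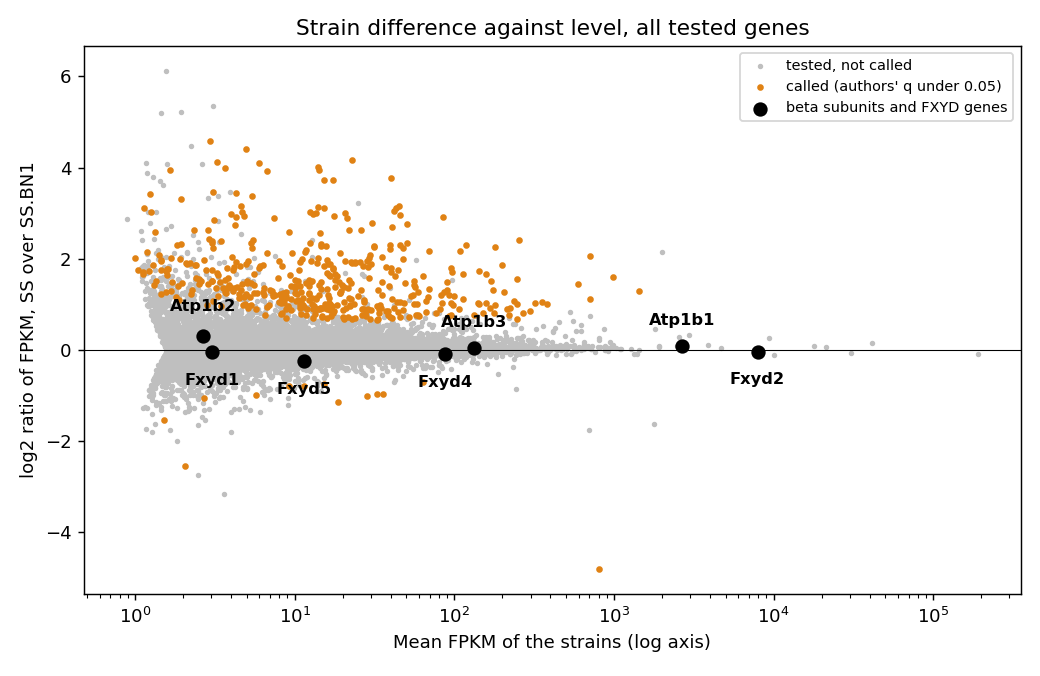
Log2 ratio of FPKM (SS over SS.BN1) against the mean FPKM of the strains on a log axis, for the 13250 tested rows with a value above 0 in both strains; called rows are orange, other rows grey and the 7 genes black. The 7 genes lie between -0.25 and 0.31 near the zero line, and the smallest called fold of any row is 1.58.

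Fxyd5 and Fxyd1 are the 2 members on chromosome 1, the chromosome exchanged between the strains. Both lie in a cluster with Fxyd7 and Fxyd3, with Fxyd5 at 89464860 to 89474280 and Fxyd1 at 89484199 to 89488223 in coordinates as deposited, whose build is not settled. Between these lay Fxyd7, at 0.112 FPKM in SS and 0.0971 FPKM in SS.BN1, and beyond Fxyd1 lay Fxyd3, at 0.317 FPKM in SS and 0.401 FPKM in SS.BN1. Neither was tested. Tested rows further along the chromosome included Hpn (log2 ratio 0.10) and Gramd1a (0.14), neither of them called. Neighbouring rows that hold several gene names were left out. The absolute log2 ratios of the chromosome 1 members, 0.25 and 0.05, stood beside a median of 0.14 over the 1778 tested rows of chromosome 1. The 5 members on other chromosomes had log2 ratios from -0.10 to 0.31.

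The isoform table splits the 7 genes into 25 isoforms, of which 11 carry an annotated transcript name and 14 were assembled from the reads and carry no gene symbol. Of the 25, 21 were tested and 0 were called in the authors' deposited table, beside 1.05% of all tested isoforms (249 of 23688). None had an unadjusted p under 0.05, beside 3.85% of all tested isoforms, and the smallest p was 0.355. The median log2 ratio of the 21 was -0.00596, beside 0.00405 over all tested isoforms. Isoform FPKM summed to the gene's FPKM within 0.000335% for each of the 7 genes, so the isoforms are no separate evidence on the gene levels.

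Atp1b1 consisted of 3 annotated isoforms in similar proportions in both strains. The main one, ENSRNOT00000003932, had 2085 FPKM in SS and 2004 FPKM in SS.BN1, or 75.6% and 76.7% of the gene. The second, ENSRNOT00000076578, had 544 FPKM in SS and 476 FPKM in SS.BN1 (19.7% and 18.2%). The third, ENSRNOT00000075948, had 128 FPKM in SS and 133 FPKM in SS.BN1. Atp1b2 had a single isoform, and Atp1b3 had an annotated isoform with 91.1% of the gene in SS and 93.3% in SS.BN1 beside an assembled one.

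Fxyd2 had 7 isoforms, but 2 annotated ones held 96.3% of the gene in SS and 96.6% in SS.BN1. The larger, ENSRNOT00000022074, had 4597 FPKM in SS and 4673 FPKM in SS.BN1, or 58.8% and 58.1% of the gene. The other, ENSRNOT00000064611, had 2924 FPKM in SS and 3098 FPKM in SS.BN1, or 37.4% and 38.5%. The gamma subunit is known to exist in variants that differ at the amino terminus, and the files do not say which isoform encodes which variant. An assembled isoform followed at 280 FPKM in SS and 265 FPKM in SS.BN1, and the remaining 4 stood at 5.73 FPKM or less.

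For Fxyd4 the annotated transcript held only 2.47% of the gene in SS and 2.62% in SS.BN1, at 2.10 and 2.37 FPKM. The rest came from 5 assembled isoforms, led by one of 34.4 FPKM in SS and 34.5 FPKM in SS.BN1 and another of 24.5 and 23.7 FPKM. A count of Fxyd4 by symbol in the isoform table would therefore miss most of this row. As for Fxyd6, the origin of the assembled isoforms was not tested, and the level of Fxyd4 given above rests on them. The largest difference among its isoforms was in another assembled one, 11.4 FPKM in SS and 16.2 FPKM in SS.BN1 (log2 ratio -0.51), with p = 0.462 in the authors' deposited table.

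Fxyd5 had the largest differences in isoform make-up, at low levels. Its leading isoform, an assembled one, had 6.85 FPKM in SS and 9.04 FPKM in SS.BN1, or 65.5% and 72.5% of the gene, with p = 0.394 in the authors' deposited table. The annotated ENSRNOT00000089474 had 1.26 FPKM in SS and 2.56 FPKM in SS.BN1 (log2 ratio -1.03), with p = 0.387 in the authors' deposited table. Of all tested isoforms, 7.15% had an absolute log2 ratio of at least 1. The other annotated isoform, ENSRNOT00000028597, had 1.27 FPKM in SS and 0.718 FPKM in SS.BN1, and a second assembled one had 1.08 FPKM in SS and 0.138 FPKM in SS.BN1, both untested. The summed absolute changes in isoform share divided by 2, a measure chosen after the values were seen, came to 15.6 percentage points for Fxyd5. The median of that measure was 5.88 points over the 4118 tested genes with several isoforms and 5 to 20 FPKM, of which 8.98% had a larger one.

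Fxyd1 had 2 isoforms of near-equal level that leaned in opposite directions. The annotated one had 1.68 FPKM in SS and 1.48 FPKM in SS.BN1 (log2 ratio 0.19), with p = 0.829 in the authors' deposited table. The assembled one had 1.30 FPKM in SS and 1.61 FPKM in SS.BN1 and was not tested. At these levels the sign of the difference for Fxyd1 depends on which isoform is read.

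**Figure D3:**
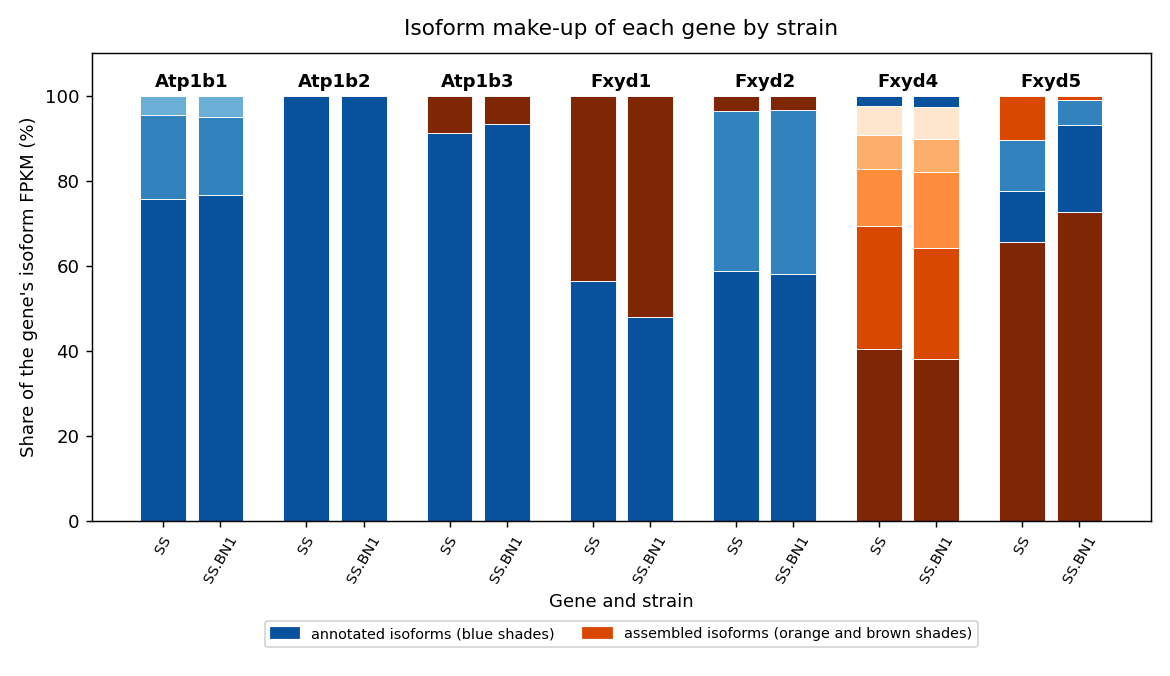
Share of each gene's summed isoform FPKM held by each isoform (stacked bars, %), by gene and strain, with annotated isoforms in blue shades and assembled ones in orange and brown shades. Atp1b1 and Fxyd2 have nearly the same make-up in both strains, the annotated isoform of Fxyd4 is a sliver of 2.47% in SS and 2.62% in SS.BN1, and the leading isoform of Fxyd5 holds 65.5% in SS and 72.5% in SS.BN1.

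Genes that anchor, modify or control the pump were called in 2 of 31 tested cases, both higher in SS, beside 3.42% of all tested rows. The median log2 ratio of the 31 was 0.01, and 16 of them had the higher and 15 the lower value in SS. The authors' unadjusted p was under 0.05 for 4 of the 31, beside 7.55% of all tested rows. Sik1, a salt-inducible kinase known to act on pump activity, rose from 3.99 FPKM in SS.BN1 to 7.50 FPKM in SS (log2 ratio 0.91, q = 0.0233 in the authors' deposited table). Plk2, a polo-like kinase induced by stress, rose from 3.31 to 7.88 FPKM (log2 ratio 1.25, q = 0.00266 in the authors' deposited table). Whether Plk2 acts on the pump was not tested. Proximal tubule markers were higher in SS as well (median log2 ratio 1.26), and their part in these 2 calls was not tested. The mineralocorticoid receptor Nr3c2 had 14.2 FPKM in SS and 15.7 FPKM in SS.BN1, and the kinase Sgk1, a target of that receptor, had 51.3 FPKM in SS and 40.5 FPKM in SS.BN1 (p = 0.529 and p = 0.102 in the authors' deposited table). Ank3, an ankyrin of the kind that ties the pump to the membrane skeleton, had 57.6 FPKM in SS and 59.6 FPKM in SS.BN1.

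Markers of the thick ascending limb were present at high levels, with 12 of 12 tested, 0 called and none with an unadjusted p under 0.05 in the authors' deposited table. Their median log2 ratio was 0.10, and 10 of the 12 had the higher value in SS. Umod led at 10174 FPKM in SS and 8492 FPKM in SS.BN1. Slc12a1, the cotransporter that the pump drives, had 2571 FPKM in SS and 2406 FPKM in SS.BN1, close to the level of Atp1b1. Libraries held 47.7 to 57.7 M reads in SS and 42.3 to 59.8 M reads in SS.BN1.

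Several members are also known from other cell types, whose markers differed in part between the strains. The tables are of bulk RNA, in which fewer cells of a type and less RNA per cell cannot be told apart. The counts for each list below stand beside 3.42% of all tested rows called and 7.55% with an unadjusted p under 0.05 by the authors' test. Principal cells of the collecting duct, the known site of Fxyd4, had 7 of 8 markers lower in SS (1 called; median log2 ratio -0.34; summed level 159 FPKM in SS and 215 FPKM in SS.BN1). Their leading marker Aqp2 fell from 78.3 FPKM in SS.BN1 to 48.1 FPKM in SS (q = 0.0318 in the authors' deposited table), while Fxyd4 differed by -0.10 on the log2 scale. By its whole row, most of it assembled isoforms of untested origin, Fxyd4 exceeded Aqp2 1.77-fold in SS and 1.16-fold in SS.BN1. No marker of this list was at 0, and only the called one had an unadjusted p under 0.05 by the authors' test. The part of principal cells in the Fxyd4 value was not tested.

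Endothelial cells and leukocytes express Fxyd5. Of 7 tested endothelial markers, 6 had the lower value in SS and 1 was called (median log2 ratio -0.51). The authors' unadjusted p was under 0.05 for 4 of these 7 markers, beside 7.55% of all tested rows. The endothelial list summed to 90.9 FPKM in SS and 133 FPKM in SS.BN1. The call was Tek, at 6.78 FPKM in SS and 11.6 FPKM in SS.BN1 (the authors' deposited table gives q = 0.0221). The most abundant, Plvap, had 32.0 FPKM in SS and 51.8 FPKM in SS.BN1 and was not called. Leukocyte markers had 3 of 6 lower in SS and 1 called, higher in SS (median -0.08). The authors' unadjusted p was under 0.05 for 2 of these 6 markers, which differed in opposite directions. The leukocyte list summed to 466 FPKM in SS and 470 FPKM in SS.BN1. The call was Cd14, at 7.46 FPKM in SS and 2.63 FPKM in SS.BN1 (the authors' deposited table gives q = 0.0221). The most abundant, Cd74, had 358 FPKM in SS and 349 FPKM in SS.BN1 and was not called. Fxyd5, at -0.25, leaned in the same direction as the endothelial markers. This lean was not particular to endothelium, since principal cell markers (median -0.34) and intercalated cell markers (median -0.24) shared it. The part of any of these cells in the Fxyd5 value was not tested.

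Smooth muscle, in which Fxyd1 is found, had 5 of 6 tested markers with the higher value in SS and none called (1 with an unadjusted p under 0.05; median log2 ratio 0.46; summed level 64.8 FPKM in SS and 46.3 FPKM in SS.BN1). Its leading row, Tagln with a second name, had 39.4 FPKM in SS and 26.7 FPKM in SS.BN1, and Fxyd1 differed by -0.05. Nerve and Schwann cell markers, listed because Atp1b2 is known from glia, were tested in 3 of 5 cases with none called (none with an unadjusted p under 0.05; median 0.07; summed level 21.9 FPKM in SS and 20.9 FPKM in SS.BN1). Mbp led them at 16.3 FPKM in SS and 15.5 FPKM in SS.BN1, and Sox10 was listed at 0 in both strains.

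Proximal tubule markers had 8 of 8 tested members higher in SS and 6 called (median log2 ratio 1.26). The authors' unadjusted p was under 0.05 for 7 of these 8. Kap led the list at 290.3 FPKM in SS and 120.5 FPKM in SS.BN1. Proximal tubules also use Atp1b1 and Fxyd2, and the whole list summed to 477 FPKM in SS and 199 FPKM in SS.BN1. Intercalated cell markers had 7 of 7 lower in SS and none called (1 with an unadjusted p under 0.05; median -0.24), led by Slc4a1 at 55.8 FPKM in SS and 69.7 FPKM in SS.BN1. Red blood cell markers had none called among 2 tested (none with an unadjusted p under 0.05; median -0.12), led by Hba-a1 at 83.6 FPKM in SS and 82.8 FPKM in SS.BN1. The part of these cells in the member values was not tested.

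**Figure D4:**
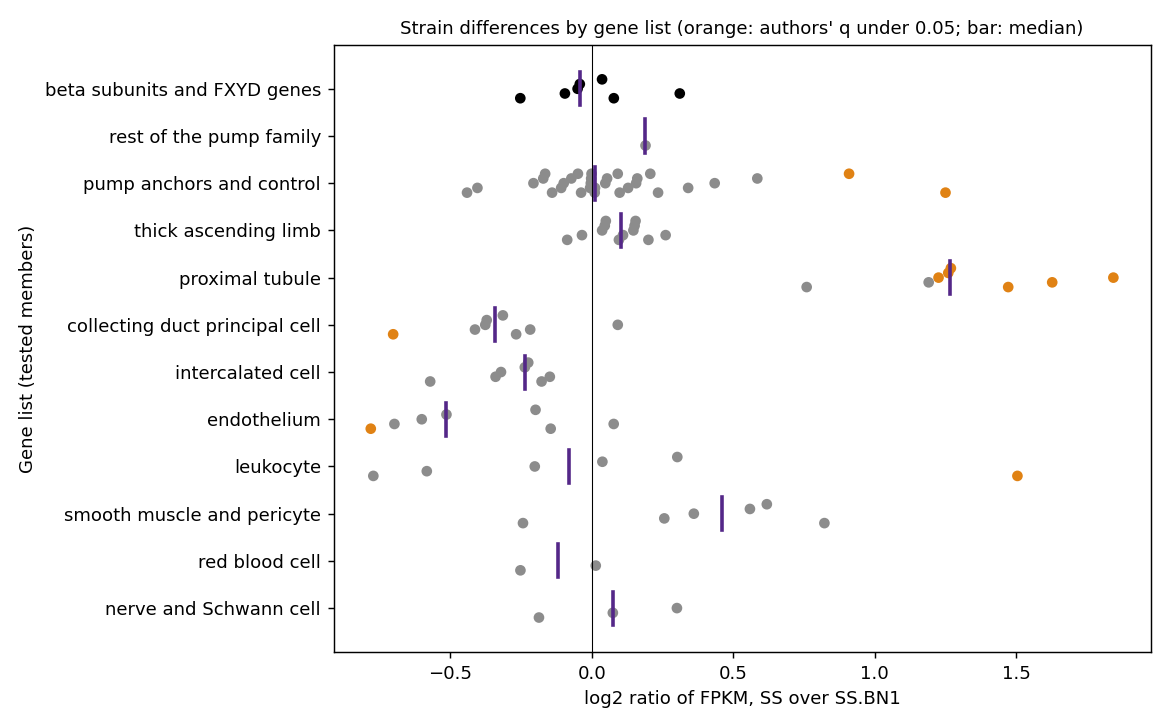
Log2 ratio of FPKM (SS over SS.BN1) of each tested gene, by list, with called genes in orange, the 7 beta subunit and FXYD genes in black, others in grey and the list median as a purple bar. The 7 genes spread from -0.25 to 0.31 around a median of -0.04, those of the thick ascending limb have a median of 0.10, and proximal tubule markers lie to the right at a median of 1.26.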

How the data were processed

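Per the labels' protocols, stranded total-RNA libraries were made from single rats and sequenced in pairs. Tools listed in the submitters' processing notes, without order or role, are TopHat2 2.1.1, Cufflinks 2.2.1, StringTie, cutadapt and FastQC; the build listed is rn5. Gene and isoform tables hold FPKM made by the authors, 1 value per strain, in the layout of Cuffdiff per the file headers; the way in which 6 libraries became 1 value, and how far p and q rest on variation between rats, are not given in the sources used here. P-values and q-values are those the authors deposited; Benjamini-Hochberg adjustment over the 13253 tested rows gave their q within 5.27e-07. Read counts per library and mate are deposited in a further table and were summed. The build of the coordinates is not settled, since 6832 rows bear AABR07 contig names, which come from a later assembly; 1 was added to each start, because 26 of 31 mitochondrial rows start where another row ends.

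Members were matched by symbol, isoforms to genes by the deposited gene ID. Log2 ratios are SS over SS.BN1 with no pseudocount, computed from the authors' FPKM, and genes were called at the authors' q under 0.05. Planned limma fits per library were not run, since expression per library was not analysed here. Members and lists were chosen with earlier results of these data known, and no p is adjusted over a list. Text outside the members names further genes of the family, the called genes of the control list with 3 fixed ones, and the most abundant gene of each marker list; rows on chromosome 1 next to Fxyd1 and Fxyd5, Nme7, Slc12a1, Tek, Cd14 and Sox10 were named after their values were seen. A listed symbol was matched to its tested row with the highest mean FPKM; Pecam1 was not analysed here, and some genes that the rule takes are left out. Atp1b3-ps2 is from RefSeq (GRCr8), used for names only. The adjustment was tested on simulated p-values. Tables were computed with pandas 2.3.3 and NumPy 2.4.6 in Python 3.11.15, the adjustment was compared with SciPy 1.17.1, and figures were drawn with matplotlib 3.10.9.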

Additional observations from a re-analysis of the deposited data

How the results depend on the processing

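With 0 calls at q under 0.05, a threshold of q under 0.01 could call none of the 7 genes or 21 tested isoforms. None was called among rows with a mean FPKM of at least 5 either, where 5 members remained and the lowest recomputed q was 1.00. Other scalings leave the authors' q as it is. Pseudocounts of 1 and 0.1 cannot reverse a ratio, and summed isoforms repeat the gene values, so neither could change a direction. Median centring moved each log2 ratio by only 0.00125, and all 7 genes kept their direction. Under quantile normalization Atp1b1 turned to -0.0195 and Atp1b3 to -0.127, and Fxyd2 came to 0. Reading only isoforms that carry the symbol, chosen after seeing the data, turned Fxyd1 to 0.187. Of the 21 isoforms, 1 changed direction under median centring, the main one of Atp1b3 (-0.00171), which came to -0.172 under quantile normalization. There the main isoform of Atp1b1 came to 0, the second turned to -0.0281, the first assembled one of Fxyd2 to -0.0386, another of Fxyd2 to -0.0170 and one of Fxyd4 to -0.0556. Quantile normalization gives equal ranks equal values, so a 0 there shows only that the rank was the same in both strains. The cause of the other changes was not tested.

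The share of Fxyd2 among FXYD genes was 98.8% in SS and 98.7% in SS.BN1 over the members alone and 99.9% in each strain over isoforms that carry the symbol, 2 readings chosen after seeing the data. By that reading Fxyd4 fell to a share of 0.0279% in SS and 0.0305% in SS.BN1, since its assembled isoforms carry no symbol. Summed isoforms and tested rows alone left the shares of Atp1b1, Atp1b3, Fxyd2 and Fxyd4 within 1 percentage point; those of the other members were not recomputed. No paired analysis was possible because expression is deposited as 1 value per strain, and for the same reason no rat could be left out. Depth per gene is unknown, since the tables hold no counts per gene.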
